A study of Mus musculus with 29 samples.

Results

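A set of 43 genes of the cell division cycle were followed through liver tumours and non-tumour liver of mice. They were taken by name from a deposited table of 22187 Ensembl gene IDs, and all 43 were listed there. By role, 8 act in G1 and entry into S phase, 15 in DNA replication and nucleotide supply, and 20 in G2 and mitosis. The data are polyA RNA sequencing of 29 mouse liver libraries in CPM, the share of a library's counts that a gene takes, scaled to 1000000. C57BL/6 mice, wild type (WT) or labelled IL17RA-/- (lacking the receptor for interleukin 17, a cytokine of inflammation), received the liver carcinogen DEN at 25 mg/kg at 2 weeks of age in every group. They were then fed for 18 weeks on a diet labelled HFD or HFD_alcohol, which the series text describes as pair-fed and isocaloric liquid ethanol feeding. Non-tumour liver gave 5 alcohol WT, 5 alcohol IL17RA-/-, 3 HFD WT and 3 HFD IL17RA-/- libraries. Tumours gave 3 alcohol WT, 4 alcohol IL17RA-/-, 3 HFD WT and 3 HFD IL17RA-/- libraries. There was no group without DEN, and the labels give neither the sex nor whether a tumour and a non-tumour library came from the same animal. They also do not state whether replicates are separate animals, so the p-values below speak only of the spread among these libraries. Groups are named IL17RA-/- as labelled.

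A dividing cell first commits to division in G1, when D-type and E-type cyclins activate their kinases, the retinoblastoma proteins are inactivated and E2F factors are released. E2F factors switch on the genes that copy DNA: the licensing factors, the MCM helicase that unwinds the double helix, and the enzymes that make deoxynucleotides. Genes needed for mitosis come on later, in G2, under the MuvB complex with B-Myb and FOXM1, often through a promoter element called CHR together with CCAAT boxes bound by NF-Y. Adult hepatocytes are mostly quiescent and often polyploid, and E2F8 with E2F7 is known to limit cell division while liver cells become polyploid.

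The 250 bases before the transcription start were searched in RefSeq promoters of assembly GRCm38.p6, where 34 of the 43 members had an entry. The motifs were E2F sites (written as TTTCCCGC, as TTTCGCGC, as TTTGCCGC or as TTTGGCGC, which can overlap one another), the CHR element (TTTGAA) and the CCAAT box, on both strands. An E2F match was found in 4 of 13 replication promoters (30.8%), 1 of 16 mitosis promoters (6.25%) and 2.16% of all 27025 genes. CHR and CCAAT together were found in 7 of 16 mitosis promoters (43.8%), 2 of 13 replication promoters (15.4%) and 6.45% of all genes. CCAAT alone was common in both classes, at 14 of 16 and 9 of 13, against 37.5% of all genes. The 2 classes compared below thus also differed in these counts of promoter letters, which are small and were not tested. A match is also not a shown binding site.

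Stretches of 100 bases upstream of the start of 1 replication member and 3 mitosis members show these letters, 5′ to 3′ on the gene's own strand. They were picked because they hold the motif, so they are not typical of their class. Of the other genes considered for printing, Mcm2, Pcna, Rrm2 and Tk1 held no E2F match, and Ccnb1, Plk1 and Birc5 no CHR match. Mcm6 lies at chr1:128359725-128359824, Cdk1 at chr10:69352913-69353012, Mki67 at chr7:135716452-135716551 and Top2a at chr11:99024190-99024289, all on the minus strand of GRCm38.p6. Capitals mark E2F matches in Mcm6, and CHR and CCAAT matches in the mitosis members. A match on the other strand reads ATTGG for the CCAAT box and TTCAAA for the CHR element.
Mcm6: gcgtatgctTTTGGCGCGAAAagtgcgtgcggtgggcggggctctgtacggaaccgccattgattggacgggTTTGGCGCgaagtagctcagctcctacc
Cdk1: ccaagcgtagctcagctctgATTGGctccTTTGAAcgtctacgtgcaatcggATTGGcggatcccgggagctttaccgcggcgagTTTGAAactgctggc
Mki67: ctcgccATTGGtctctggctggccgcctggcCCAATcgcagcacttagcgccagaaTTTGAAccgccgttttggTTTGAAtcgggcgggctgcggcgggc
Top2a: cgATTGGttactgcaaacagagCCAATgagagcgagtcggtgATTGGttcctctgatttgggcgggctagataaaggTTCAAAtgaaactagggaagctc
Mcm6 shows an overlapping pair of E2F matches and a further single one, while Cdk1 and Mki67 each show a pair of CHR elements beside CCAAT boxes.

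The libraries held 3213696 to 9660584 recovered read counts, so that 3 counts correspond to 0.311 to 0.934 CPM. The tissue label was checked against hepatocyte markers, whose summed level was 66373 to 114165 CPM in non-tumour liver and 97566 to 221270 in tumours. Oncofetal tumour markers summed to 3.63 to 429 CPM in non-tumour liver and 195 to 896 in tumours, with IL17RA-/- HFD replicate 3 the highest non-tumour library. Il17ra itself was at 15.9 to 62.9 CPM in the 15 libraries labelled IL17RA-/- and 16.1 to 48.5 in the 14 WT libraries. In tumours it was higher in the libraries labelled IL17RA-/- (42.4 to 55.8 on alcohol and 54.4 to 62.9 on HFD) than in every WT library of the same diet (32.3 to 33.8 and 22.9 to 48.5). Which exons were removed is not given, and a sum over the whole gene may hide a partial loss. Every difference between genotypes below therefore depends on the labels being right. In whole tissue, fewer cells of a type and less RNA per cell cannot be told apart.

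In tumours the mitosis genes rose together, the replication genes moved little, and the G1 genes split. Relative to non-tumour liver, averaged over the 4 strata of diet and genotype, 29 of the 43 members rose, 1 fell and 13 did not pass (limma on log2(CPM + 1), Benjamini-Hochberg adjusted p under 0.05 over 13586 genes). All 20 mitosis members rose, with a median log2 fold change of 1.37, or 2.58-fold. Of the 15 replication members 6 rose and none fell, with a median of 0.20, or 1.15-fold. Tumour and non-tumour liver differed widely in this series: 63.6% of all genes tested were called, 36.6% higher and 27% lower, with a median of 0.09. Against that background the mitosis share stands at 20 of 20, while the replication share of 6 of 15 is close to it.

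**Figure D1:**
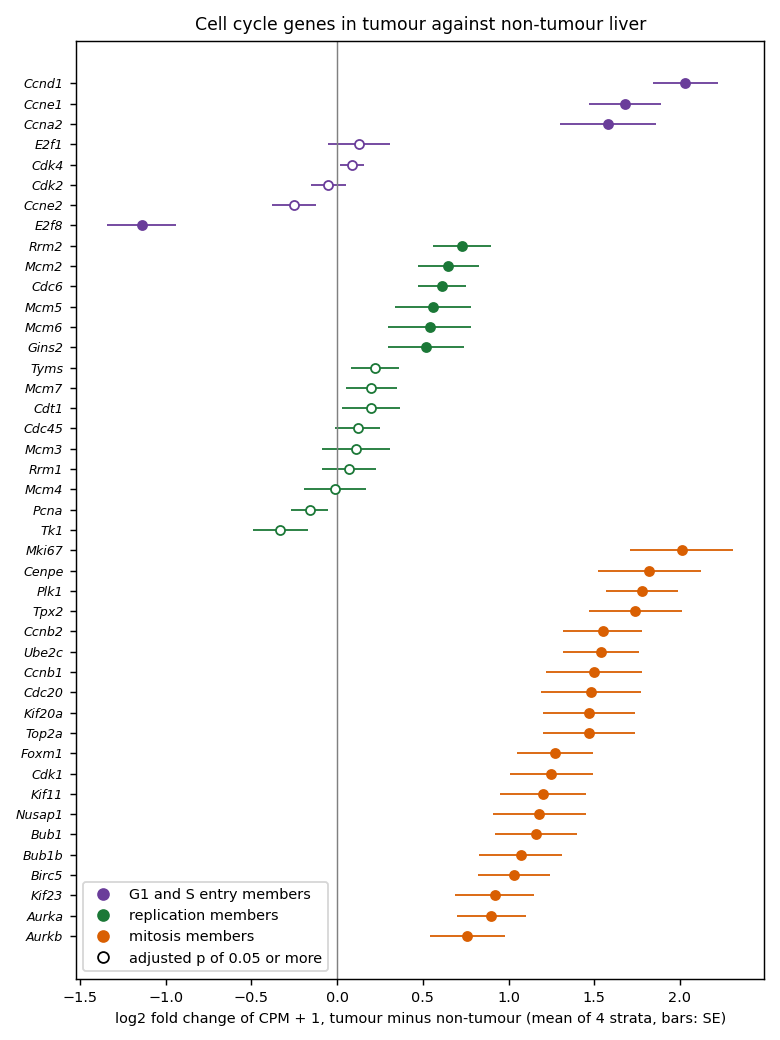
Log2 fold change of CPM + 1 in tumours against non-tumour liver for each of the 43 genes, as the mean of the 4 strata of diet and genotype, with bars for the standard error. Filled points passed an adjusted p of 0.05: all 20 mitosis genes lie between 0.76 and 2.01, the 15 replication genes between -0.33 and 0.73, and Ccnd1 and E2f8 mark the ends of the G1 and S entry genes.

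Among the G1 genes, Ccnd1 (cyclin D1, ENSMUSG00000070348, chr7:144929931-144939925, GRCm38), the cyclin that starts the commitment to division, rose most on the log2(CPM + 1) scale. Its level was 12.7 to 85.8 CPM in the 16 non-tumour libraries (median 33.7) and 77.7 to 217 in the 13 tumours (median 134). The ranges meet only at their ends: the highest non-tumour library, HFD WT replicate 1, stood above the lowest tumour, alcohol WT replicate 4. The log2 fold change was 2.03 ± 0.19 (SE), or 4.09-fold, with a limma adjusted p of 1.01e-09. Its kinase partner Cdk4 was at 38.7 to 56.5 CPM in non-tumour liver and 41.9 to 77.1 in tumours, a log2 fold change of 0.09 ± 0.07 that did not pass (limma adjusted p = 0.266). The cyclin was called and its kinase was not, and the difference between them was not tested. Counts of Ccnd1 and Cdk4, and of Ccne2, Ccna2, Gins2, Pcna and Kif20a below, were fractions in over 15 libraries, so their values are uncertain by reads that may be shared with other genes.

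Ccne1 (cyclin E1), which drives the step from G1 into S, was at 0.632 to 6.58 CPM in non-tumour liver (median 1.99) and 5.11 to 13.5 in tumours (median 9.47). It rose 3.2-fold, by 1.68 ± 0.21 on the log2 scale (limma adjusted p = 1.29e-07). Its close relative Ccne2 (cyclin E2) did not pass, at -0.25 ± 0.13 (limma adjusted p = 0.0892), nor did their partner Cdk2, at -0.05 ± 0.10. Cyclin E1 was thus called higher and cyclin E2 was not.

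Ccna2 (cyclin A2), which serves both S phase and entry into mitosis, rose 2.98-fold, from a median of 4.19 to 16.1 CPM (1.58 ± 0.28, limma adjusted p = 2.53e-05). E2f1, an activating E2F factor, did not pass, at 0.13 ± 0.18. E2f8, a repressing E2F factor, was the only member to fall. Its level was 3.22 to 12.6 CPM in non-tumour liver (median 7.63) and 0.812 to 7.92 in tumours (median 2.14), a log2 change of -1.14 ± 0.20, or 2.21-fold lower (limma adjusted p = 1.9e-05). Of the 13 tumours only HFD WT replicate 4, at 7.92 CPM, stood above the non-tumour median.

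The mitosis genes rose in every functional group among them. Mki67, the gene of the proliferation antigen Ki-67 that coats mitotic chromosomes, was at 5.72 to 56 CPM in non-tumour liver (median 20.1) and 23.9 to 222 in tumours (median 98). It had the largest rise of the class, 2.01 ± 0.30 or 4.03-fold (limma adjusted p = 2.24e-06). Of the 13 tumours 2 lay within the non-tumour range, alcohol WT replicate 4 at 23.9 CPM and HFD WT replicate 6 at 42.6.

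The kinase that triggers mitosis and its cyclins all rose. Cdk1 was at 1.12 to 14.1 CPM in non-tumour liver (median 3.9) and 3.11 to 23 in tumours (median 13.7), a rise of 1.25 ± 0.24. Ccnb1 and Ccnb2 (B-type cyclins, the partners of Cdk1) rose by 1.5 ± 0.28 and 1.55 ± 0.23. Foxm1, the transcription factor of the G2 programme, rose 2.4-fold (1.27 ± 0.22, limma adjusted p = 2.27e-05).

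Among mitotic kinases, Plk1 (polo-like kinase) was at 0 to 5.32 CPM in non-tumour liver (median 0.957) and 2.3 to 14.2 in tumours (median 7.41). It rose by 1.78 ± 0.21 (limma adjusted p = 5.71e-08), although 9 libraries were under 1 CPM, where the pseudocount shrinks a fold. Aurka, a kinase of the spindle poles, and Aurkb, the kinase of the chromosome passenger complex, rose less, by 0.90 ± 0.20 and 0.76 ± 0.22. Birc5 (survivin), a partner of Aurkb, rose by 1.03 ± 0.21, from a range of 0.697 to 5.74 CPM to 1.35 to 10.2. On the log2(CPM + 1) scale Aurkb had the smallest rise of the class and Aurka the next smallest.

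The spindle checkpoint kinases Bub1 and Bub1b rose by 1.16 ± 0.24 and 1.07 ± 0.24. Cdc20 and Ube2c, which direct and carry out the ubiquitination that ends mitosis, rose by 1.48 ± 0.29 and 1.54 ± 0.22. Spindle motors and factors rose as well: Cenpe by 1.82 ± 0.30, Tpx2 by 1.74 ± 0.27, Kif20a by 1.47 ± 0.27, Kif11 by 1.2 ± 0.25, Nusap1 by 1.18 ± 0.27 and Kif23 by 0.92 ± 0.23. Top2a, the topoisomerase that disentangles chromosomes, was at 3.21 to 47.6 CPM in non-tumour liver (median 12.5) and 10.1 to 75.1 in tumours (median 34.3), a rise of 1.47 ± 0.27. The highest adjusted p among all 20 was 0.00426, for Aurkb.

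The replication genes behaved otherwise. Rrm2 is the regulated subunit of ribonucleotide reductase, which makes deoxynucleotides. It had the largest rise on the log2(CPM + 1) scale, 0.73 ± 0.17 or 1.66-fold (limma adjusted p = 0.000597). It was at 4.98 to 15.3 CPM in non-tumour liver (median 7.72) and 6.09 to 26.7 in tumours (median 13.7), so the ranges overlapped over most of their length. Its partner subunit Rrm1 did not pass, at 0.07 ± 0.16, so the subunits of 1 enzyme were called differently; the difference between them was not tested.

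The MCM subunits, which form 1 ring, also split. Mcm2 rose by 0.65 ± 0.18 (limma adjusted p = 0.00233), from 3.49 to 17.1 CPM in non-tumour liver to 9.33 to 23.6 in tumours. Mcm5 (0.56 ± 0.22) and Mcm6 (0.54 ± 0.24) passed with limma adjusted p-values of 0.0301 and 0.0491. Mcm6 was at 5.72 to 29.8 CPM (median 13.2) in non-tumour liver and 9.2 to 50.9 (median 19.4) in tumours. Mcm3 (0.11 ± 0.20), Mcm4 (-0.01 ± 0.18) and Mcm7 (0.20 ± 0.15) did not pass. A called rise thus covered 3 of the 6 subunits, 2 of them near the threshold.

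Of the loading and firing factors, Cdc6, which loads the helicase, rose by 0.61 ± 0.14 (limma adjusted p = 0.000539), although it was under 1 CPM in 15 libraries. Gins2, a subunit of the active helicase, rose by 0.52 ± 0.22 (limma adjusted p = 0.0396). Cdt1 (0.20 ± 0.17) and Cdc45 (0.12 ± 0.13), their companions in loading and firing, did not pass. The calls of Mcm5, Mcm6 and Gins2 were lost when some single libraries were left out, whereas Cdc6, Mcm2 and Rrm2 kept theirs in each of the 29 such fits.

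Pcna, the sliding clamp of the DNA polymerases and a common marker of dividing cells, did not pass in either direction. It was at 23.7 to 47.4 CPM in non-tumour liver (median 31.8) and 19.7 to 49.8 in tumours (median 27.1), a log2 difference of -0.16 ± 0.11 (limma adjusted p = 0.202). Tk1 (thymidine kinase) was at 7.25 to 20.2 CPM in non-tumour liver and 3.93 to 15.5 in tumours, a difference of -0.33 ± 0.16 (limma adjusted p = 0.0797), and Tyms (thymidylate synthase) differed by 0.22 ± 0.14. With the libraries rescaled by median ratios, Pcna, Tk1 and Ccne2 passed as lower, at -0.20, -0.38 and -0.29 with limma adjusted p-values of 0.0385, 0.0264 and 0.0304. Neither scaling called any of these 3 higher.

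**Figure D2:**
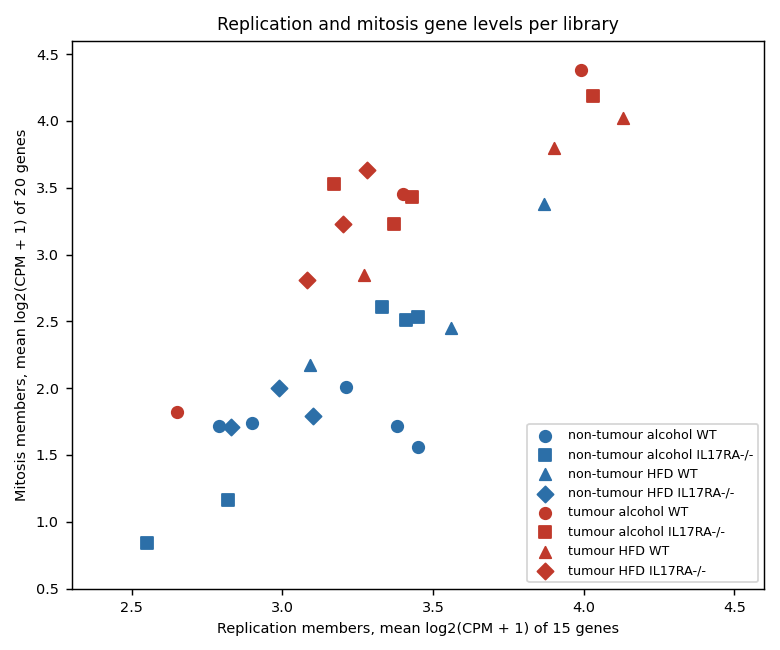
Mean log2(CPM + 1) of the 20 mitosis genes against that of the 15 replication genes, 1 point per library, with non-tumour libraries in blue, tumours in red and symbols for diet and genotype. The 13 tumours span nearly the same replication levels as the non-tumour libraries (2.65 to 4.13 against 2.55 to 3.87) and, at a like replication level, lie higher in mitosis level, while alcohol WT replicate 4 (1.82) lies among the non-tumour points.

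The contrast was also visible library by library. The mean log2(CPM + 1) of the replication members was 3.17 ± 0.35 (SD, n = 16) in non-tumour liver and 3.46 ± 0.43 (n = 13) in tumours. That of the mitosis members was 1.99 ± 0.61 and 3.41 ± 0.67. Mitosis level minus replication level ran from -1.89 to -0.49 in non-tumour libraries (median -1.11) and from -0.83 to 0.39 in tumours (median 0). CPM is not corrected for gene length, so the sign of this difference has no meaning and only its shift between libraries does. Alcohol WT replicate 4 was the only tumour below the highest non-tumour library, HFD WT replicate 1, on this measure.

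Within a tissue some libraries stood at the same end of both classes. The non-tumour library with the highest mitosis level, HFD WT replicate 1 (3.38), also had the highest replication level (3.87). The lowest in both was alcohol IL17RA-/- replicate 2 (0.84 and 2.55). Among tumours, alcohol WT replicate 5 had the highest mitosis level (4.38) and alcohol WT replicate 4 the lowest of both (1.82 and 2.65), so 1 group of 3 libraries held both extremes of the mitosis level in tumours. Other libraries did not follow this: among non-tumour alcohol WT libraries replicate 3 had the highest replication level (3.45) and the lowest mitosis level (1.56), and alcohol IL17RA-/- tumour 5 had its group's lowest replication level (3.17) with a mitosis level of 3.53, the second highest.

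**Figure D3:**
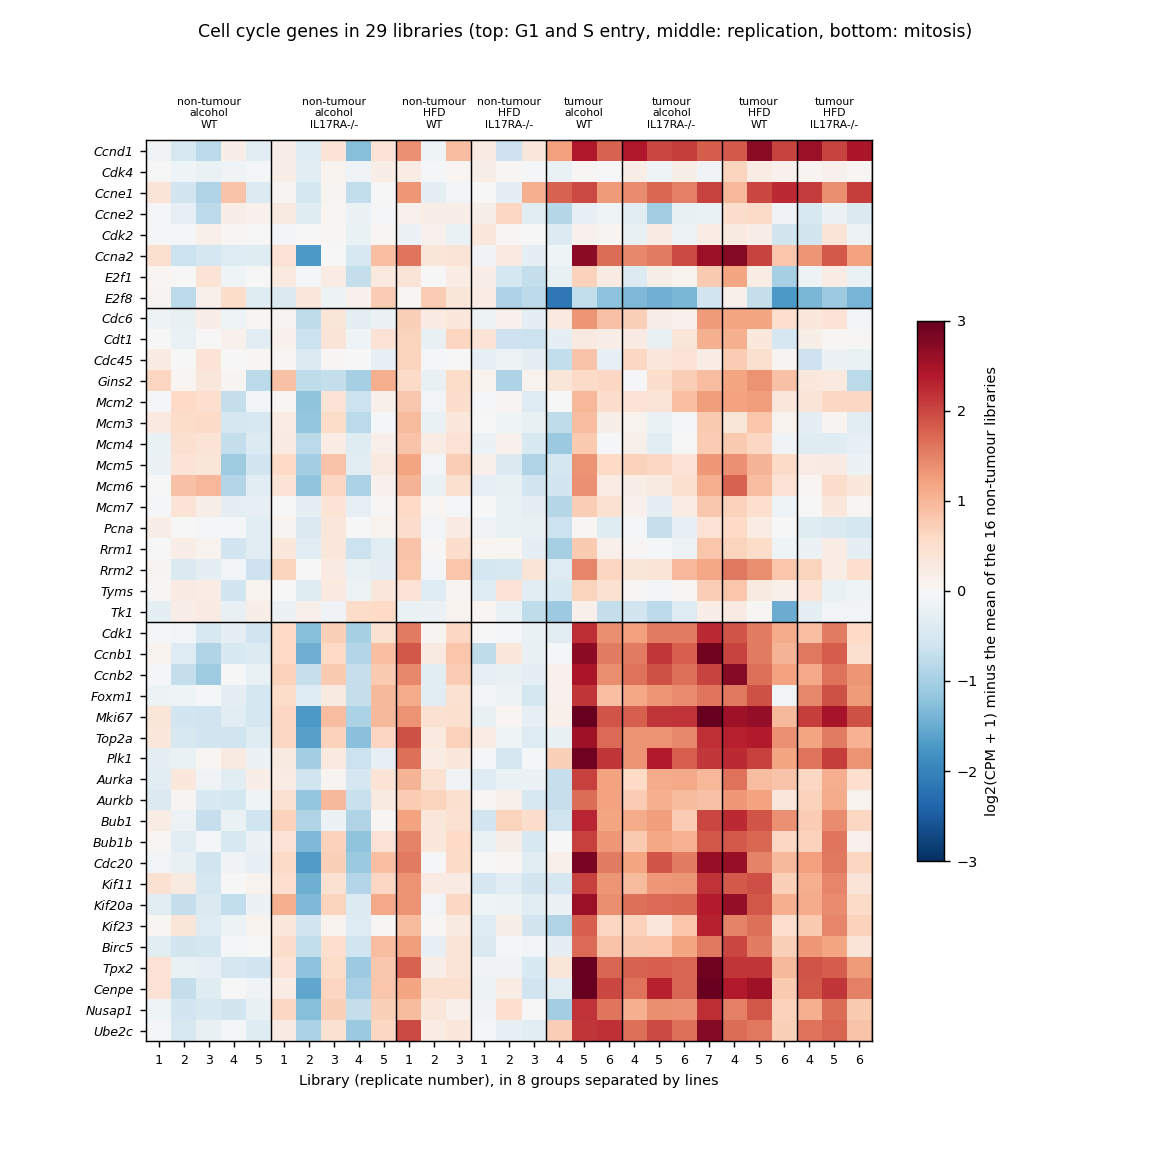
Each of the 43 genes (rows) in each of the 29 libraries (columns), as log2(CPM + 1) minus the mean of the 16 non-tumour libraries, red above and blue below. The mitosis block at the bottom is red in the tumours except alcohol WT replicate 4 and Foxm1 in HFD WT replicate 6, the replication block is paler, and E2f8 is blue in every tumour but HFD WT replicate 4, while HFD WT replicate 1 is the reddest non-tumour library.

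The tissue difference was then taken within each stratum, where groups hold 3 to 5 libraries. In alcohol-fed WT mice 20 members rose and 1, E2f8, fell, against 35.7% of all genes called (16.6% higher and 19.2% lower). Of the mitosis members 15 of 20 rose, with a class median of 1.54, and of the replication members 2 of 15, with a median of 0.15. The median over all genes was 0.01. Mki67 was at 27.6, 13.9, 13.7, 17 and 14.4 CPM in the non-tumour libraries (replicates 1 to 5) and at 23.9, 200 and 82.1 in the tumours (replicates 4 to 6). Tumour replicate 4 lay below the highest non-tumour library, and the rise was 2.07 ± 0.57 (limma adjusted p = 0.00583). Cdc6 (0.87 ± 0.27) had the larger of the replication rises. The count rested on the tumours used: it was 26 without tumour replicate 4, 7 without replicate 5 and 13 without replicate 6.

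In alcohol-fed mice labelled IL17RA-/-, 24 members rose and 1, again E2f8, fell, against 39.9% of all genes called (21.8% higher and 18.1% lower). Here 19 of 20 mitosis members rose, with a median of 1.63, and 2 of 15 replication members, Mcm2 (0.98 ± 0.31) and Cdc6 (0.74 ± 0.25), with a median of 0.41. The median over all genes was 0.08. Mki67 was at 33.5, 5.72, 41.1, 10.5 and 42.8 CPM in non-tumour liver and at 77, 98, 98.7 and 222 in tumours, groups that did not overlap (2.39 ± 0.52, limma adjusted p = 0.000785). E2f8 was at 4.97, 9.07, 6.25, 7.78 and 12.6 CPM in non-tumour liver and at 2.14, 1.94, 2.12 and 4.36 in tumours, lower in all 4 tumours than in any non-tumour library (-1.32 ± 0.35, limma adjusted p = 0.00396). In that stratum 14.5% of all genes were lower without overlap. Without non-tumour replicates 2 and 4, whose mitosis levels were low, 10 members were called and the mitosis median was 0.98.

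In WT mice on HFD only Ccnd1 (1.47 ± 0.40, limma adjusted p = 0.0141) and Ccne1 (1.42 ± 0.44, limma adjusted p = 0.0294) rose, against 15.3% of all genes called (7.64% higher and 7.61% lower). All 20 mitosis members had a positive difference, with a median of 0.91, and none passed. The median over all genes was 0.07. Mki67 was at 56, 29.8 and 30 CPM in non-tumour liver and at 130, 139 and 42.6 in tumours, so that tumour replicate 6 lay below non-tumour replicate 1. Ccnd1 was at 85.8, 29.3 and 62.7 CPM in non-tumour liver and at 119, 217 and 134 in tumours, which did not overlap. The count of called members was 0 without tumour replicate 5 or non-tumour replicate 2, 1 without tumour replicate 6 or non-tumour replicate 3, and 4 without non-tumour replicate 1. It was 0 when only the compared groups were fitted and 1 with a pseudocount of 0.1.

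In mice labelled IL17RA-/- on HFD 13 members rose and none fell, against 40.4% of all genes called (23.9% higher and 16.5% lower). They were Ccnd1 (2.36 ± 0.40), Ccne1 (1.59 ± 0.44) and 11 mitosis members. Mki67 (2.29 ± 0.64) led the latter on the log2(CPM + 1) scale, and the mitosis median was 1.3. No replication member passed, and their median was 0.16, against 0.15 for all genes. Mki67 was at 18.1, 22.1 and 17.7 CPM in non-tumour liver and at 93, 122 and 82.8 in tumours. Pcna, by contrast, was at 29.9, 27.9 and 27.5 CPM in non-tumour liver and at 25.1, 23.6 and 22.1 in tumours, lower in each tumour than in any non-tumour library without passing the test. In that stratum 22.3% of all genes were lower without overlap. The count of called members was 8 without tumour replicate 5, and 22 when only the compared groups were fitted.

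Ranges were compared as well. In mice labelled IL17RA-/-, 18 mitosis members on alcohol and 17 on HFD were higher in every tumour than in any non-tumour library, where 15.1% and 32.4% of all genes were. In WT the counts were 5 on alcohol and 1 on HFD, against 17.0% and 12.7%. Ccnd1 was free of overlap in all 4 strata, as the highest non-tumour library of each lay below its lowest tumour. Taken over all 29 libraries no member was free of overlap, where 2.84% of genes were higher and 3.3% lower without overlap.

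Whether the tissue difference itself depended on genotype or diet was tested by interaction terms. No member was called in the interaction with genotype or in that with diet, and limma called 0 of 13586 genes (0%) in either, while 1266 and 499 passed an unadjusted p of 0.05. Limma-voom called no member in either. The median difference of the mitosis members was 0.30 larger in IL17RA-/- than in WT, and 0.45 larger on alcohol than on HFD. For all genes these medians were 0.06 and -0.06. The differing counts of the strata are therefore not shown to be differing effects.

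**Figure D4:**
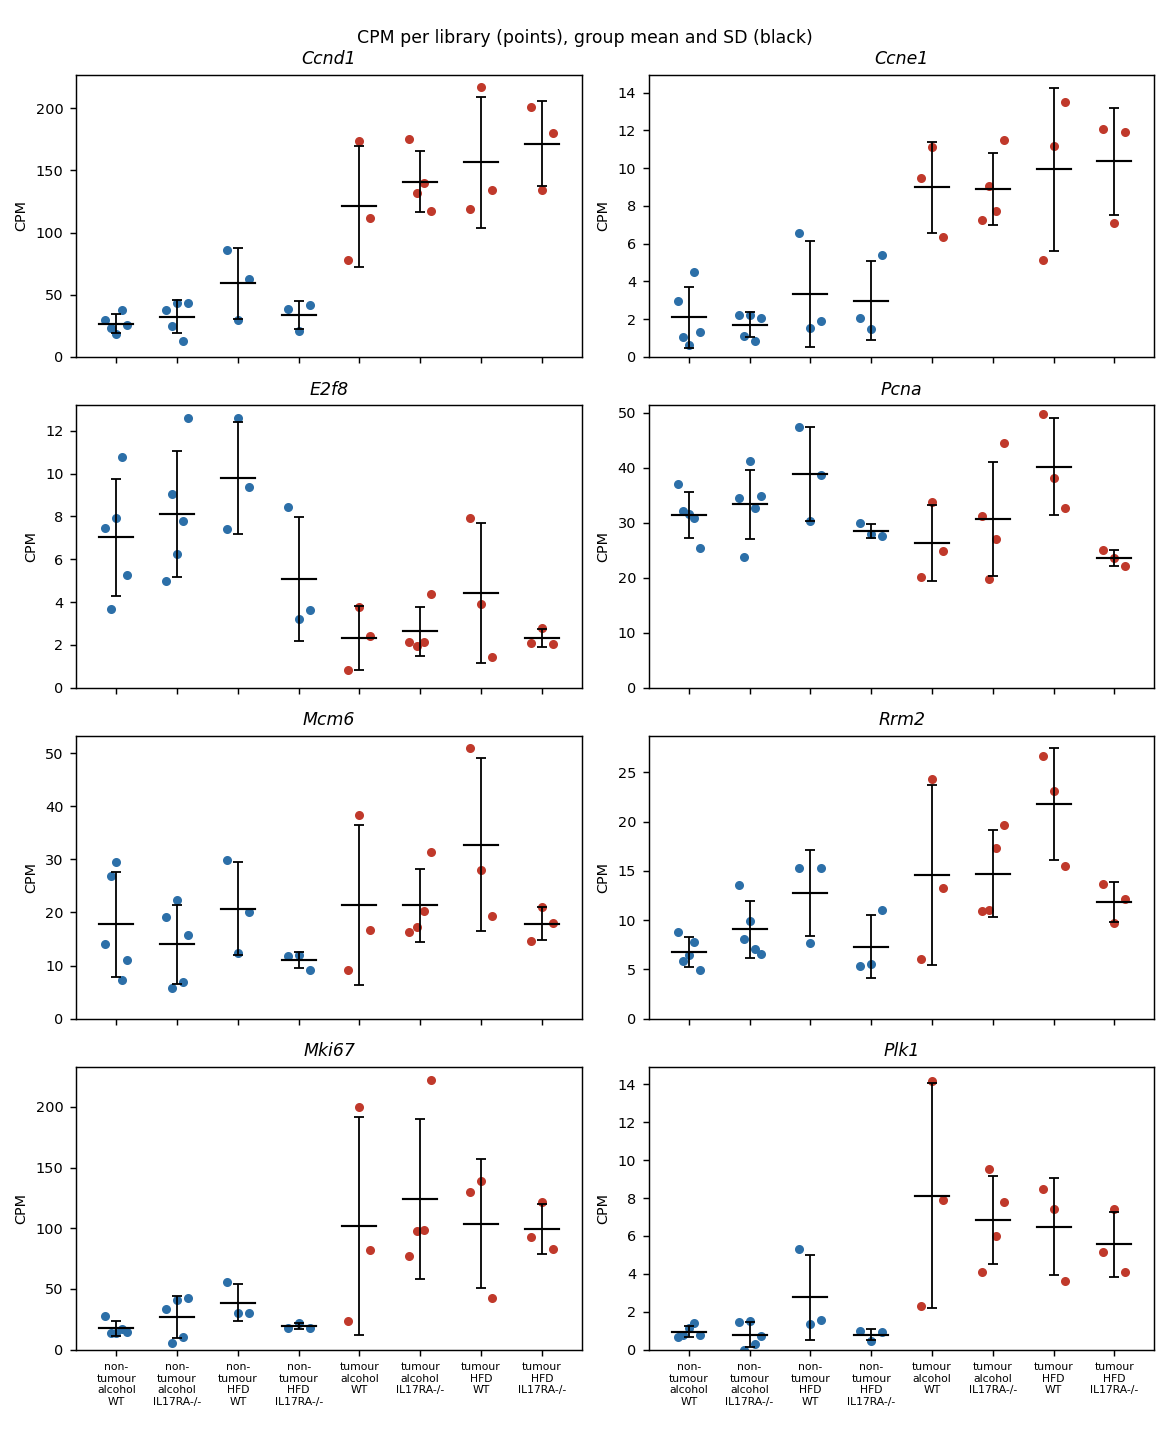
CPM of 8 cell cycle genes in each library (points) of the 8 groups, with the group mean and SD in black, non-tumour groups in blue and tumour groups in red. Most tumour points of Ccnd1, Ccne1, Mki67 and Plk1 lie above the non-tumour points and most of E2f8 below, with some overlap in each, while those of Pcna, Mcm6 and Rrm2 overlap more widely.

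Genotypes were compared within each tissue and diet. No member was called in any of the 4 comparisons. In non-tumour liver on alcohol limma called 0 genes (0%), while 330 of 12829 (2.57%) passed an unadjusted p of 0.05, none of them a member. The mitosis median was 0.15 for IL17RA-/- minus WT, where that of all genes was 0.01. Without IL17RA-/- replicates 2 and 4 the mitosis median was 0.85. In non-tumour liver on HFD limma again called 0 genes (0%), while 461 of 12829 (3.59%) passed an unadjusted p of 0.05. Among these were 9 of the 43 members. There 42 of the 43 members were lower in libraries labelled IL17RA-/-, with medians of -0.87 for mitosis, -0.54 for replication and -0.12 for all genes. Plk1 had the smallest p, at 0.982, 0.43 and 0.932 CPM in IL17RA-/- and 5.32, 1.36 and 1.57 in WT (-0.94 ± 0.38, limma adjusted p = 0.9). Each IL17RA-/- library lay below each WT library for Plk1, but how many of all genes were so separated was not counted. WT replicate 1 lay far above the others.

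That library moved the class: without HFD WT replicate 1 the medians were -0.47 for mitosis and -0.35 for replication. It also had the highest summed level of 11 Kupffer cell and macrophage markers, 2242 CPM, against 297 to 1836 in the other 15 non-tumour libraries, and 30.1 CPM of T and NK cell markers against 4.01 to 15.7. The same library had 181 CPM of oncofetal tumour markers, and the highest Ccnd1 (85.8 CPM) and Ccne1 (6.58 CPM) of the non-tumour libraries. Only HFD IL17RA-/- replicate 3 had more oncofetal markers among non-tumour libraries, 429 CPM, with a mitosis level of 1.71. The part of tumour cells in these libraries was not tested. Alcohol IL17RA-/- replicates 2 and 4, with the lowest mitosis levels (0.84 and 1.16), had the lowest macrophage marker sums, 304 and 297 CPM. Over the non-tumour libraries the macrophage sum and the mitosis level thus moved together at both ends, and the part of these cells in the mitosis level was not tested. Between the ends the order differed in places: alcohol WT replicate 1 had 1836 CPM with a mitosis level of 2.01, and alcohol IL17RA-/- replicate 5 had 1130 with 2.61. Alcohol IL17RA-/- replicates 2 and 4 also had the lowest endothelial marker sums of the non-tumour libraries, 314 and 329 CPM. Between tissues the macrophage sum and the mitosis level moved apart: 9 of the 11 macrophage markers were lower in tumours and none higher, with sums of 216 to 863 CPM, while the mitosis members rose. No macrophage marker was at 0 in any library.

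**Figure D5:**
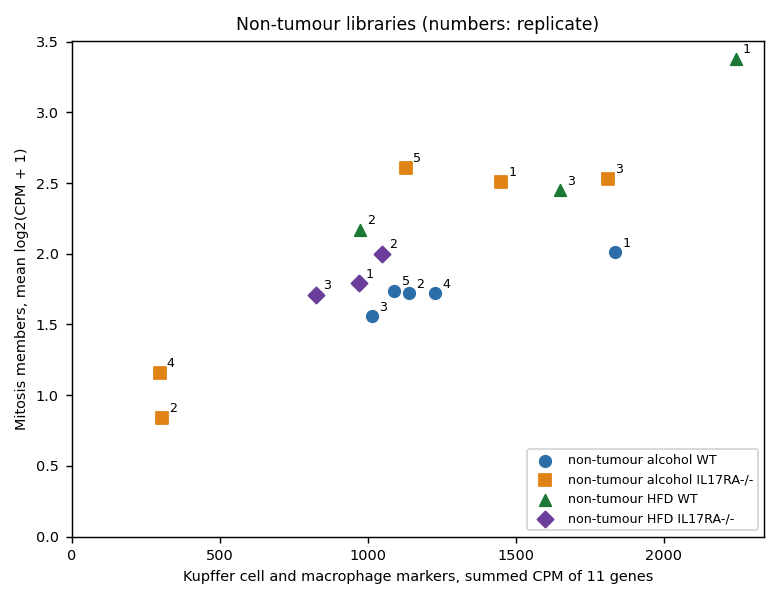
Mean log2(CPM + 1) of the 20 mitosis genes against the summed CPM of 11 Kupffer cell and macrophage markers in the 16 non-tumour libraries, with replicate numbers beside the points. Alcohol IL17RA-/- replicates 2 and 4 lie lowest on both axes and HFD WT replicate 1 lies highest on both.

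Other cell types moved with the tumours as well, where 36.6% of all genes were called higher and 27% lower. Stellate cell and fibroblast markers were called higher in 5 of 7 and lower in 2, with sums of 336 to 1085 CPM in non-tumour liver and 385 to 1888 in tumours. Cholangiocyte markers were higher in 4 of 5, with sums of 24.2 to 139 CPM and 87.5 to 1661, where HFD WT tumours 4 and 5 (1610 and 1661) stood far above the other 11 tumours (87.5 to 545). T and NK cell markers were called higher in 2 of 9 tested, B and plasma cell markers in 2 of 6, endothelial markers in 0 of 6 (1 was lower) and neutrophil markers in 0 of 2 tested. Erythroid and haematopoietic precursor markers were lower in 3 of 5 tested and higher in 1, with sums of 300 to 696 CPM (median 440) in non-tumour liver and 166 to 407 (median 230) in tumours. The tumour with the lowest mitosis level, alcohol WT replicate 4, had the lowest sum of macrophage markers (216 CPM) and of fibroblast markers (385) among tumours and the highest of hepatocyte markers (221270). How far such cells contribute to the members' levels was not tested.

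In tumours on alcohol no member was called between genotypes (limma 0 genes, 0%, while 261 passed an unadjusted p of 0.05). The medians were 0.34 for mitosis, 0.18 for replication and 0.09 for all genes. But without WT replicate 5 that for mitosis was 1, and without WT replicate 4 that for replication was -0.23. In tumours on HFD limma called 1.61% of genes (0.603% higher and 1% lower) and no member, while 2986 genes (22.5%) passed an unadjusted p of 0.05, among them 4 members. The difference was negative for 37 of the 43 members, with medians of -0.73 for replication, -0.36 for mitosis and -0.09 for all genes. Markers of other cells differed in the same libraries without passing: 9 of 11 macrophage markers and all 9 T and NK cell markers tested were lower in IL17RA-/-, with medians of -0.51 and -0.78. Macrophage marker sums had a median of 509 CPM in IL17RA-/- and 707 in WT, without overlap, cholangiocyte sums ran from 216 to 268 and from 352 to 1661, and T and NK cell sums from 4.57 to 19.6 and from 12.3 to 59.4. The part of these cells in the members' differences was not tested. Gins2 had the smallest p, at 6.26, 6.17 and 2.35 CPM in IL17RA-/- and 12.3, 14 and 9.74 in WT (-1.21 ± 0.32, limma adjusted p = 0.0638). Pcna was at 25.1, 23.6 and 22.1 CPM in IL17RA-/- and 49.8, 38.1 and 32.7 in WT. These did not overlap, but how many of all genes were so separated was not counted. Pcna passed only when all 29 libraries entered the fit (-0.73, limma adjusted p = 0.0418).

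Alcohol was compared with HFD in the same way, and again no member was called. In WT non-tumour liver limma called 0 genes (0%), while 541 of 12829 (4.22%) passed an unadjusted p of 0.05. Among these were 16 of the 43 members. On alcohol 41 of 43 members were lower, with medians of -0.95 for mitosis, -0.30 for replication and -0.08 for all genes. Rrm2 had the smallest p, at 8.81, 5.82, 6.47, 7.77 and 4.98 CPM on alcohol and 15.3, 7.67 and 15.3 on HFD (-0.79 ± 0.28, limma adjusted p = 0.875). Without HFD WT replicate 1 the medians were -0.62 for mitosis and -0.13 for replication. This comparison and that of genotypes on HFD share the 3 WT HFD libraries. In IL17RA-/- non-tumour liver limma called 0 genes (0%), while 745 passed an unadjusted p of 0.05. There the medians were 0.09 for mitosis, 0.14 for replication and 0.05 for all genes. Without alcohol IL17RA-/- replicates 2 and 4 that for mitosis was 0.75.

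In WT tumours the diets gave medians of -0.31 for mitosis, -0.42 for replication and -0.17 for all genes. There limma called 1 gene (0.00754%), while 2126 genes, or 16%, passed an unadjusted p of 0.05, among them 3 members. In IL17RA-/- tumours the medians were 0.34, 0.27 and -0.00 (limma 0 genes, 0%, while 293 passed an unadjusted p of 0.05). The mitosis median in WT tumours was 0.44 without alcohol WT replicate 4 and -1 without alcohol WT replicate 5, so its sign rested on 1 library. The interaction of genotype and diet called 0 genes (0%) in non-tumour liver and 0 (0%) in tumours, while 529 and 1757 passed an unadjusted p of 0.05. Limma-voom called no member in any of these comparisons of genotype, of diet or of their interaction.

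Other genes of the cycle, beyond the 43, gave counts that differed between replication and mitosis in the same way. Their lists were also chosen with earlier results of these data known, so they are not an independent check. Of 42 other mitosis genes 37 rose in tumours and 4 fell, with a median of 1.10. Cenpf, a kinetochore protein, rose most, from a median of 4.76 to 26.6 CPM (2.13 ± 0.31, limma adjusted p = 1.69e-06). Spc24, a subunit of the NDC80 kinetochore complex, fell, from 10.2 to 4.16 CPM (-1.09 ± 0.17, limma adjusted p = 5.41e-06). Of 41 other replication genes 12 rose and 10 fell, with a median of 0.01. Over all genes tested 36.6% were called higher and 27% lower, with a median of 0.09.

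Uhrf1, which maintains DNA methylation at replication forks, had the largest rise of the latter list (1.22 ± 0.25, limma adjusted p = 0.00017). Mcm10, a factor needed for the helicase to start, had the largest fall. It was at 43 to 119 CPM in the 16 non-tumour libraries (median 76.1) and at 6.37 to 27.4 in the 13 tumours (median 8.99), without overlap, a log2 change of -2.73 ± 0.17 or 6.65-fold lower (limma adjusted p = 1.46e-12). It thus fell while Mcm2, Mcm5 and Mcm6 of the helicase rose.

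Of 23 other G1 and S regulators 11 rose and 5 fell, where 36.6% of all genes rose and 27% fell. Mybl2 (B-Myb), the activator of G2 genes with the MuvB complex, rose by 1.02 ± 0.12 (limma adjusted p = 1.25e-07), from 0 to 0.613 CPM in non-tumour liver to 0.763 to 3.09 in tumours, levels of few counts. Rbl2 (p130), the pocket protein of resting cells, fell from a median of 54.5 to 37.9 CPM (-0.53 ± 0.07, limma adjusted p = 8.48e-07). Of 8 CDK inhibitors 7 rose and none fell, against the same shares of all genes. Cdkn2b (p15), an inhibitor of the cyclin D kinases, rose most, from a median of 1.18 to 20.7 CPM (3.03 ± 0.29, limma adjusted p = 1.87e-09).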

How the data were processed

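Per the labels' protocols, RNA was polyA-selected and libraries were made with a stranded kit; per the submitters' processing notes, STAR 2.5.1a, RSEM 1.3.0 and GRCm38 were used. The deposited table holds CPM per gene, and each column sums to 1000000. Whether counting used strand is not given in the sources used here.

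Of the 22187 IDs, 21653 had a symbol in the reference tables. The 43 members and all lists were chosen with earlier results of these data known. Values were analysed as log2(CPM + 1) with limma 3.58.1 (R 4.3.3, trend), on genes that reached 1 CPM in 3 or more libraries of the fit. Fits used all 29 libraries for tissue, and the 16 non-tumour or 13 tumour libraries otherwise. Calls are two-sided at a Benjamini-Hochberg adjusted p under 0.05 over all genes tested. Folds are on the log2(CPM + 1) scale and understate low genes. The procedure was tested on simulated data with independent genes, in which only better expressed genes were changed. That test does not cover low genes or genes that vary together, as many members are.

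The low values were steps of 1 read: 83.4% to 86.2% of values above 0 were whole counts within 0.002, and the rest were fractions, since RSEM estimates counts. Reads are not independent molecules, so the limits given for low counts cover counting error only. Counts were whole in all libraries for 30 members. They were not whole in over 15 libraries for Ccnd1, Cdk4, Ccne2, Ccna2, Gins2, Pcna and Kif20a. Of these 7, 6 share exon bases with a listed gene on the opposite strand, as do 7 of the other 36 members.

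No 2 libraries of a group were alike within sampling noise (chi-square per gene of 11.0 to 95.5 over 41 pairs). Replicate numbers were checked as pairs by the correlation of deviations from group means over genes. All exceeded 0.1 only between diets in WT non-tumour liver (0.34, 0.27 and 0.13). Pairing by replicate number was tried there only as an alternative, and 0 members were called with it or without it. The medians and differences reported in Results did not use this pairing. Genes named are the 43 members and, for each other list, the largest rise and fall among called genes. Alternatives were another pseudocount, no filter, rescaling, limma-voom on recovered counts, other sets of libraries, a replicate block and leaving out libraries.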

Additional observations from a re-analysis of the deposited data

Results flagged for a closer look

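In 5 of 51 sets of values looked at 1 library stood far from the rest of its group, and chance alone gives about 1 in 20. A set was a gene, or the mean level of the replication or mitosis members, in a group of 4 or 5 libraries. The only genes looked at were Ccnd1, Cdk4, Ccne1, Mcm2, Mcm6, Pcna, Rrm2, Tk1, Cdk1, Ccnb1, Mki67, Top2a, Plk1, Birc5 and E2f8. All 5 far values came from 2 libraries. In non-tumour liver of alcohol-fed WT mice, replicate 1 had Mki67 at 27.6 CPM against 13.7 to 17 in the others, and Top2a at 15.2 against 7.63 to 9.05. In alcohol tumours labelled IL17RA-/-, replicate 7 had Mki67 at 222 CPM against 77 to 98.7, Top2a at 58.2 against 32.4 to 34.3 and E2f8 at 4.36 against 1.94 to 2.14. In both libraries the far value was the highest of its group. The tumour library of these 2 had the fewest counts of all 29, 3213696, against 6080387 to 8024010 in the rest of its group. The effect of depth on its values was not tested.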

How the results depend on the processing

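Averaged over strata, 26 to 33 members were called between tissues under the alternatives and 27 to 31 with 1 library left out, against 30. The mitosis median ran from 1.21 to 1.54 and the replication median from 0.15 to 0.30 with 1 library left out. All 20 mitosis calls and the 4 calls among G1 and S entry members held in these 29 fits, and 3 of 6 replication calls did. Mcm6 also lost its call with limma-voom (limma adjusted p = 0.0516) or without a filter (0.0664), and Gins2 without a filter (0.0554). Without the 4 libraries that stood apart in earlier results (HFD WT tumour 4, alcohol IL17RA-/- tumour 5, HFD IL17RA-/- non-tumour 3, HFD WT non-tumour 1) Mcm5, Mcm6 and Gins2 lost theirs.

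With 1 library left out the stratum counts ran from 7 to 26 in alcohol WT, 20 to 27 in alcohol IL17RA-/-, 0 to 4 in HFD WT and 8 to 12 in HFD IL17RA-/-. In HFD WT, 1 member was called with a pseudocount of 0.1 and 0 with only the compared groups fitted. In HFD IL17RA-/- the latter gave 22. Without alcohol IL17RA-/- non-tumour replicates 2 and 4 together, 10 were called in that stratum. Between genotypes in HFD tumours, 1 was called with all 29 libraries fitted. The cause of these changes was not tested.

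The comparisons of genotype and diet and the interactions gave 0 members with any 1 library left out. Small differences changed sign: Mcm4, -0.01 with all libraries, was 0.30 with the replicate block and ran from -0.12 to 0.12 with 1 library left out, positive in 11 of these fits. Cdk2 was 0.02 with the block and ran from -0.11 to 0.01 with 1 library left out, and Rrm1 from -0.03 to 0.19. E2f1 was -0.02 without those 4 libraries, and Mcm3 -0.02 without alcohol IL17RA-/- non-tumour replicates 2 and 4. With the replicate block 26 members were called between tissues, 20 in alcohol WT and 20 in alcohol IL17RA-/-; in these the samples share only a number. HFD tissue groups share no replicate numbers, so the block was not run there.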
